A study of Mus musculus with 18 samples.

Results

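The regulators of G protein signalling Rgs1, Rgs2, Rgs3, Rgs10, Rgs14, Rgs16 and Rgs19 were followed through the RNA of mouse helper T cells that carried or lacked Id3. The members were named by symbol, and all 7 of 7 were found among the 12547 genes of the deposited expression table, which held 11 Rgs genes in all. Naive CD4 T cells had been stimulated with microbeads carrying antibodies to CD3 and CD28, in IMDM with serum, IL2, IL12 and an antibody against IL4, a mixture that steers them towards the Th1 type. The groups were Id3 knockout (KO) and wild type (WT) in sets 3, 5 and 6, with 3 libraries in each of the 6 groups, and the activation and the culture medium were shared by all of them. The labels do not say what a set is. In the authors' deposited table the contrast of set 3 carries the number 24 in its name, and those of sets 5 and 6 carry 96, neither with a unit. Strain, age, sex, the kind of Id3 allele and whether replicates came from separate mice are not given in the sources used here, so p-values measure only the spread between these libraries, which may be technical.

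RGS proteins shut off signals from receptors that act through heterotrimeric G proteins. Such a receptor loads the G alpha subunit with GTP, which frees it from the beta and gamma subunits, and both parts then drive effectors such as adenylyl cyclase, phospholipase C beta and phosphoinositide 3-kinase gamma. The RGS domain speeds the hydrolysis of that GTP, so the signal ends sooner. In lymphocytes this brake acts above all on chemokine receptors coupled to Gi, which guide migration. Id3 belongs to a different layer: it is an inhibitor of DNA binding that pairs with E proteins and keeps them from E-box sites. In bulk RNA, fewer cells of a type and less RNA per cell cannot be told apart.

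The Id3 transcript followed the labels. It lay between 1 and 5.63 on the deposited log2 scale in the 9 KO libraries and between 8.85 and 10.08 in the 9 WT libraries, with no overlap. The labels do not say which part of the gene was removed. The deposited values are log2 and had been made nearly identical in distribution within each group, so depth is unknown. The median gene stood at -0.07, 0.39 and 0.42 for KO minus WT in sets 3, 5 and 6, and differences are therefore also given after each library's median was subtracted (centred values). Of the T cell marker list 8 of 11 genes were measured, and the group means of Cd4 ran from 11.69 to 13.22. Of these markers 5 of 8 were lower in KO in set 3 and 7 of 8 higher in each of sets 5 and 6, with summed levels of 15.35 to 15.57 in KO and 15.83 to 15.85 in WT of set 3, 16.71 to 16.75 and 16.25 to 16.33 in set 5, and 16.89 to 16.91 and 16.36 to 16.53 in set 6. Of all genes 50.1% and 53.9% were called higher in sets 5 and 6, and after centring 3 T cell markers were higher and 1 lower in set 5 and 2 higher in set 6, with medians of 0.03 and 0.01.

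Markers of some other cells differed between KO and WT. In set 3, 6 of 7 measured mast cell and basophil markers passed the test and were higher in KO, with summed levels of 9.37 to 9.84 in KO and 5.97 to 6.81 in WT libraries. The same held for 6 of 8 B cell markers, with sums of 8.02 to 10.97 in KO and 6.27 to 7.50 in WT, for 3 of 4 erythroid markers, with sums of 11.59 to 13.78 and 8.18 to 9.25, and for 3 of 4 dendritic cell markers, with sums of 10.26 to 11.84 and 8.58 to 9.42. None of these markers was at a library's lowest value in all 3 libraries of a set 3 group. Of all genes 6.92% were called higher in set 3. Of the NK cell markers 0 of 6 and of the platelet markers 0 of 3 were called higher there. In sets 5 and 6, 2 of 5 measured macrophage and monocyte markers, Cd68 and Adgre1, were higher in KO. That count stands beside 50.1% and 53.9% of all genes called higher in these sets. After centring 2 of 5 were higher in each set, beside 24.9% and 18.8% of all genes. The summed level of this list was 9.42 to 9.85 in KO and 7.38 to 7.79 in WT libraries of set 5, and 10.32 to 10.54 and 8.55 to 9.41 in set 6. Lyz2, a defining macrophage and neutrophil gene, averaged 1.38 and 1.06 in KO and WT of set 5 and 1.03 and 1.02 in set 6, at or near the lowest value a library holds. The B cell sums were 7.02 to 7.38 in KO and 5.63 to 5.91 in WT of set 5, and 6.55 to 7.64 and 5.82 to 6.33 in set 6, with 1 of 8 markers called in set 5 and 0 in set 6. The mast cell and basophil sums were lower in KO, at 5.05 to 6.75 against 7.57 to 8.02 in set 5 and 5.99 to 6.61 against 7.57 to 7.74 in set 6, with 1 of 7 markers called lower in each and 1 higher in set 6. The part of these cells in the RGS results was not tested.

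Rgs1, Rgs2 and Rgs16 were higher in cells lacking Id3 in both later-numbered sets. Rgs1 was 15.9-fold higher in KO in set 5 and 7.65-fold in set 6, Rgs2 was 3.78-fold and 3.55-fold higher, and Rgs16 was 3.0-fold and 2.93-fold higher. Rgs3, Rgs14 and Rgs19 differed by amounts near that of the median gene, and Rgs10 had lower KO means in all 3 sets without passing the test. Calls rest on limma with Benjamini-Hochberg adjusted p under 0.05 over all genes. In set 3, 1 member was higher, beside 6.92% of all genes, and 1 was lower, beside 4.46%, with 11.4% called in either direction. In set 5, 6 of 7 members were higher, where 50.1% of all genes were called higher, and in set 6 again 6 of 7, where 53.9% were. After centring, 3 of 7 members were higher in set 5, where 24.9% of genes were. In set 6, 3 were then higher and 1 lower, where 18.8% were called higher and 18.5% lower. Of all genes 58.2% and 58.5% were called in either direction in sets 5 and 6 before centring, and 49.6% and 37.2% after it. Library values of KO lay wholly above those of WT for 5 of 7 members in each of sets 5 and 6, as they did for 54.3% and 59.1% of all genes. The median difference of the members was -0.12, 0.60 and 0.61 in sets 3, 5 and 6. The set 3 counts stand beside higher mast cell, B cell, erythroid and dendritic markers in KO, and those of sets 5 and 6 beside higher Cd68 and Adgre1 with Lyz2 at or near its lowest value, higher B cell sums and lower mast cell sums.

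**Figure D1:**
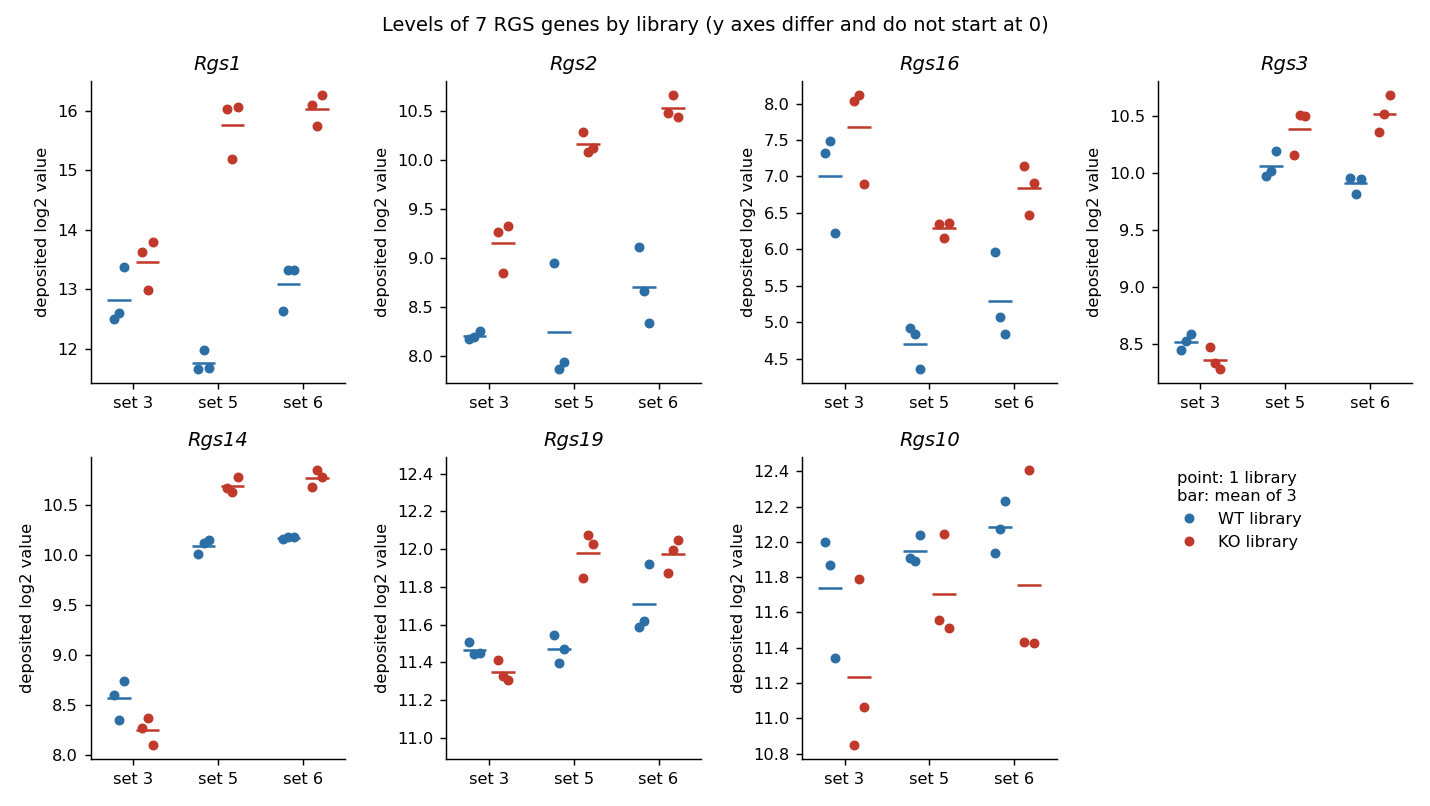
Deposited log2 values of the 7 RGS genes by library, with WT in blue and KO in red and a bar at the mean of 3 libraries. KO and WT points separate widely for Rgs1, Rgs2 and Rgs16 in sets 5 and 6, while those of Rgs10 overlap in every set. The y axes differ between genes and do not start at 0.

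Rgs1 encodes a small RGS protein that acts on Gi and Gq and limits the response of lymphocytes to chemokines. In set 5 its log2 values were 16.02, 15.19 and 16.06 in KO and 11.65, 11.97 and 11.67 in WT. In set 6 they were 16.09, 15.74 and 16.27 in KO and 12.63, 13.32 and 13.33 in WT. Within each of these sets every KO library lay above every WT library, by more than 2 log2 units. The difference was 3.99 in set 5 (SE 0.28, limma adjusted p = 2.21e-08) and 2.94 in set 6 (SE 0.28, limma adjusted p = 4.54e-07), and 3.60 and 2.52 after centring. Only 55 of the 12547 genes had a larger positive difference in set 5, and 150 in set 6. In set 3 the KO values were 13.62, 12.99 and 13.79 and the WT values 12.50, 12.60 and 13.37, so the groups overlapped. The set 3 difference of 0.64 (95% interval 0.05 to 1.23) did not pass the test (limma adjusted p = 0.151).

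Rgs2 encodes a small RGS protein with a preference for Gq that also restrains adenylyl cyclase. Its log2 values in set 5 were 10.29, 10.08 and 10.13 in KO and 8.95, 7.86 and 7.93 in WT. In set 6 they were 10.48, 10.67 and 10.44 in KO and 9.11, 8.67 and 8.34 in WT. KO lay above WT throughout, although WT replicate 1 stood about a log2 unit above the other WT libraries of set 5. The differences were 1.92 in set 5 (SE 0.24, limma adjusted p = 4.09e-06) and 1.83 in set 6 (SE 0.24, limma adjusted p = 8.43e-06), and 1.53 and 1.41 after centring. Rgs2 was also the member called higher in set 3, where KO values were 9.27, 8.85 and 9.33 and WT values 8.17, 8.20 and 8.25. These did not overlap, a property of 29.9% of all genes in set 3 in either direction and of 12% with KO above WT. The Rgs2 difference of 0.94 (SE 0.24) had a limma adjusted p of 0.0167. It missed the threshold when KO replicate 1, KO replicate 3 or WT replicate 1 of set 3 was left out (limma adjusted p = 0.0760, 0.0677 and 0.0539), and against a minimum fold of 1.2 (0.103).

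Rgs16 encodes another small RGS protein that acts on Gi and Gq and is known to curb T cell trafficking. In set 5 its log2 values were 6.35, 6.16 and 6.37 in KO and 4.92, 4.84 and 4.35 in WT. In set 6 they were 7.14, 6.47 and 6.90 in KO and 5.96, 5.07 and 4.84 in WT. The groups did not overlap, and the differences were 1.59 in set 5 (SE 0.38, limma adjusted p = 0.00194) and 1.55 in set 6 (SE 0.38, limma adjusted p = 0.00239). After centring they were 1.197 and 1.14, still past the test (limma adjusted p = 0.0158 and 0.0276). In set 3 KO values of 8.04, 8.12 and 6.89 overlapped WT values of 7.33, 7.49 and 6.22, with replicate 3 lowest in both genotypes. That difference was 0.67 (95% interval -0.14 to 1.48, limma adjusted p = 0.269).

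**Figure D2:**
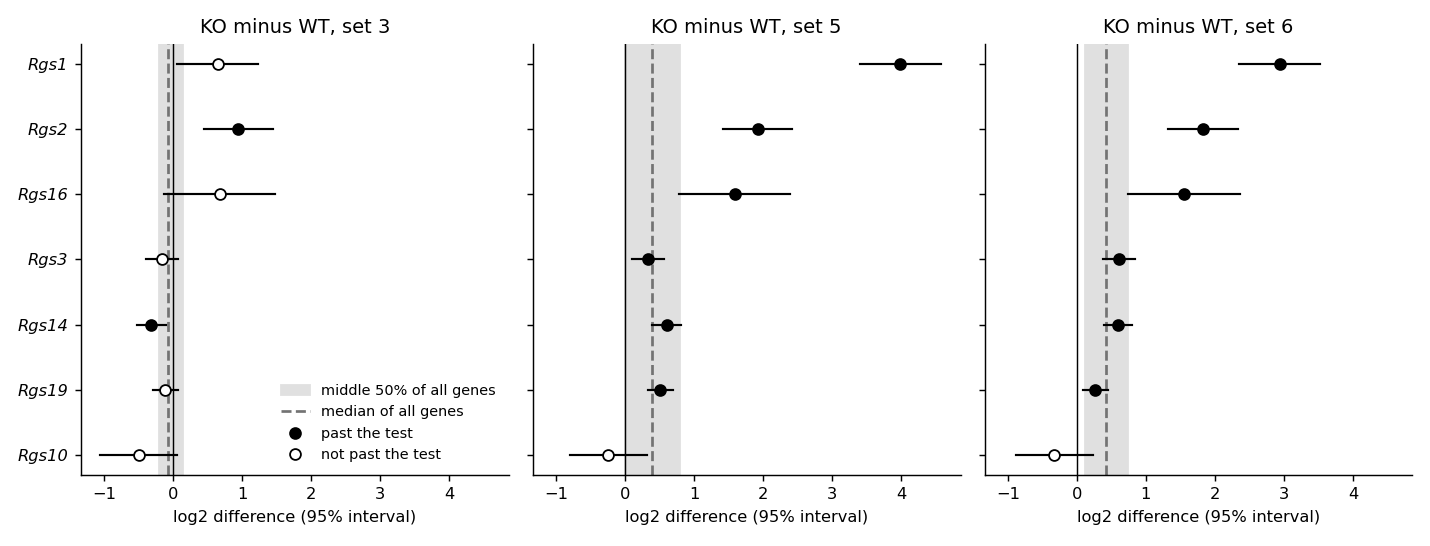
KO minus WT log2 differences with 95% intervals in sets 3, 5 and 6, filled where the gene passed the test and open where it did not; the dashed line is the median of all genes and the grey band the range between their quartiles. In sets 5 and 6 Rgs1, Rgs2 and Rgs16 lie to the right of the band, Rgs3, Rgs14 and Rgs19 inside it and Rgs10 to its left.

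Id3 acts on proteins that bind E-boxes, so the stretches just upstream of the members were read for that motif. RefSeq promoter windows (GRCm38.p6, 250 bases up to the start site) were found for 5 of 7 members, not for Rgs1 and Rgs14. The authors' notes name GRCm39, so these windows describe the genes and not the deposited reads. The motifs searched on both strands were CANNTG, its special cases CAGCTG and CAGGTG, the cAMP response core TGACG, and the AP-1 site TGANTCA. Of the members with a window, Rgs2 and Rgs16 were the 2 called higher in sets 5 and 6 both on the deposited scale and after centring, and theirs are shown, with motif matches in capitals.
Rgs2, chr1:144004150-144004399, minus strand: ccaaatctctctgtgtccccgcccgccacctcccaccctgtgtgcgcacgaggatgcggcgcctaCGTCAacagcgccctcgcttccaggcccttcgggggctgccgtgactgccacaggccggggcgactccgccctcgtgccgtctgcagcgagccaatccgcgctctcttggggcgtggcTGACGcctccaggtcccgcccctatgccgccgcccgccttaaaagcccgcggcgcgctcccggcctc
Rgs16, chr1:153740103-153740352, plus strand: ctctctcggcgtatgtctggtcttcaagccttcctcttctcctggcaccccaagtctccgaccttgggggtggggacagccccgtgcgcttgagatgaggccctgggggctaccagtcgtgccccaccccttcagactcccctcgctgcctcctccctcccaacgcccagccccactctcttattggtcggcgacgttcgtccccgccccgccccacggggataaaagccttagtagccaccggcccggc
Neither window holds the letters CANNTG, which 66.2% of 32841 windows of the same length hold. On the printed strand Rgs2 holds the core TGACG 67 to 63 bases before the start. On that same strand it holds CGTCA, the reverse complement of the core, 185 to 181 bases before. Of all windows 17.8% hold at least 1 of these. Rgs3 and Rgs19, called higher on the deposited scale alone, do hold CANNTG: 1 of 2 windows of Rgs3 has it 243 to 238 and 194 to 189 bases before the start, and 1 of 3 windows of Rgs19 has it 141 to 136 and 70 to 65 bases before. Rgs10 held none of the motifs. A match is a description of letters and not a bound site, and the windows say nothing of more distant elements.

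Rgs1 and Rgs2 are neighbours. On chromosome 1 the RefSeq gene order runs Uchl5, Rgs2, Rgs13, Rgs1, Rgs21, Rgs18, Brinp3, and Rgs16 lies farther along. Rgs8, Rgs13, Rgs21 and Brinp3 were not analysed here. Rgs18, best known from platelets and other blood cells, did not follow Rgs1. Its mean was 1.32 ± 0.49 in KO and 3.03 ± 0.43 in WT of set 6 (SD, n = 3), lower in KO (limma adjusted p = 0.0130), and in set 5 all 3 KO libraries were at their lowest value while WT averaged 2.001 ± 0.97. Uchl5, a deubiquitinase gene on the other side of Rgs2, averaged 11.88 in KO and 11.90 in WT of set 5, and 12.23 and 12.02 in set 6. Its KO minus WT difference was -0.02 in set 5 and 0.21 in set 6, against 1.92 and 1.83 for Rgs2. The Uchl5 difference in set 6 passed the test (limma adjusted p = 0.0311), and not after centring (-0.20, limma adjusted p = 0.0540). In set 5 Uchl5 was called lower after centring (-0.41, limma adjusted p = 0.000546). Npl, separated from Rgs16 by Rgs8, was higher in KO in set 6, by 1.69 (SE 0.42, limma adjusted p = 0.00280) and 1.28 after centring (limma adjusted p = 0.0265), and did not pass in set 5 (0.64, limma adjusted p = 0.209).

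Rgs14 combines an RGS domain for Gi with a GoLoco motif that holds inactive G alpha and with domains that bind Ras and Rap. Its log2 values in set 5 were 10.66, 10.63 and 10.77 in KO and 10.00, 10.11 and 10.14 in WT, and in set 6 they were 10.67, 10.84 and 10.77 in KO and 10.15, 10.17 and 10.18 in WT. The spread within each group was small and KO lay above WT in both sets. The differences of 0.60 (limma adjusted p = 6.49e-05) and 0.59 (limma adjusted p = 8.09e-05) were close to the shift of the median gene, and after centring 0.21 and 0.18 remained, which did not pass (limma adjusted p = 0.0822 and 0.157). In set 3 the direction was the opposite, with KO at 8.27, 8.37 and 8.09 and WT at 8.60, 8.35 and 8.74. The fall by 0.32 (SE 0.10, limma adjusted p = 0.0465) came from overlapping groups. It did not pass after centring (0.0686), in the compared groups alone (0.250) or without KO replicate 1, KO replicate 3, WT replicate 1 or WT replicate 3 of set 3 (0.109, 0.174, 0.129 and 0.170).

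Rgs3 acts on Gi and Gq and exists in long and short forms. In set 6 its log2 values were 10.36, 10.51 and 10.68 in KO and 9.95, 9.82 and 9.95 in WT. In set 5 they were 10.15, 10.50 and 10.50 in KO and 9.97, 10.01 and 10.19 in WT, with KO replicate 1 below WT replicate 3. The differences were 0.61 in set 6 (SE 0.11, limma adjusted p = 0.000168) and 0.33 in set 5 (SE 0.11, limma adjusted p = 0.0169). Centred, they were 0.20 and -0.06, neither past the test, so the direction in set 5 depends on the scaling. The set 5 call was also lost without KO replicate 2, KO replicate 3, WT replicate 1 or WT replicate 2 of set 5 (limma adjusted p = 0.0703, 0.0739, 0.0675 and 0.0527). In set 3 KO values were 8.47, 8.33 and 8.27 and WT values 8.44, 8.52 and 8.58, a difference of -0.16 (95% interval -0.39 to 0.07).

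Rgs19, also called GAIP, acts on Gi family subunits. Its log2 values in set 5 were 11.85, 12.07 and 12.02 in KO and 11.55, 11.40 and 11.47 in WT, without overlap. In set 6 they were 11.88, 11.997 and 12.05 in KO and 11.59, 11.62 and 11.92 in WT, where WT replicate 3 reached into the KO range. The differences were 0.51 (SE 0.09, limma adjusted p = 8.53e-05) and 0.26 (SE 0.09, limma adjusted p = 0.0145). Centred values were 0.12 and -0.15, neither past the test, and the set 6 direction depends on the scaling. The set 6 call was lost without KO replicate 3, WT replicate 1 or WT replicate 2 of set 6 (limma adjusted p = 0.0590, 0.0747 and 0.0664). Set 3 gave 11.41, 11.33 and 11.30 in KO and 11.51, 11.45 and 11.45 in WT, a narrow gap of -0.12 (95% interval -0.30 to 0.06).

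Rgs10, one of the smallest RGS proteins and abundant in leukocytes, acts on Gi. Its log2 values were 10.85, 11.79 and 11.06 in KO and 11.999, 11.87 and 11.34 in WT of set 3. They were 11.56, 12.04 and 11.51 in KO and 11.91, 11.89 and 12.04 in WT of set 5, and 11.43, 12.40 and 11.42 in KO and 11.94, 12.07 and 12.23 in WT of set 6. In each set KO replicate 2 stood above the other KO libraries and within or above the WT range. The differences were -0.50 (95% interval -1.06 to 0.05), -0.24 (-0.80 to 0.31) and -0.33 (-0.88 to 0.23), with limma adjusted p of 0.230, 0.449 and 0.298. After centring the set 6 value was -0.74 and passed (limma adjusted p = 0.0358), and the set 5 value was -0.63 (0.0560). Without KO replicate 2 in all 3 sets, a choice made after its values were seen, Rgs10 was lower in KO by 0.78, 0.41 and 0.65 (-0.78, -0.41 and -0.65), with limma adjusted p of 0.00411, 0.0333 and 0.00261.

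The same KO replicate 2 was the lowest KO library for Rgs1 in all 3 sets, at -0.48, -0.56 and -0.30 from its group mean, and the highest for Rgs10, at 0.56, 0.34 and 0.65. Of all genes 6.5% had KO replicate 2 lowest in every set and 6.97% had it highest in every set. With it left out, the Rgs1 difference in set 3 became 0.88 (limma adjusted p = 0.0251), which passed. Among WT libraries, replicate 1 was lowest for Rgs1 in every set, as for 7.44% of genes, and replicate 3 was lowest for Rgs16 in every set, as for 11.9%. These patterns were picked out after the values were seen, and what the replicate numbers share was not tested here beyond the correlations given with the processing.

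**Figure D3:**
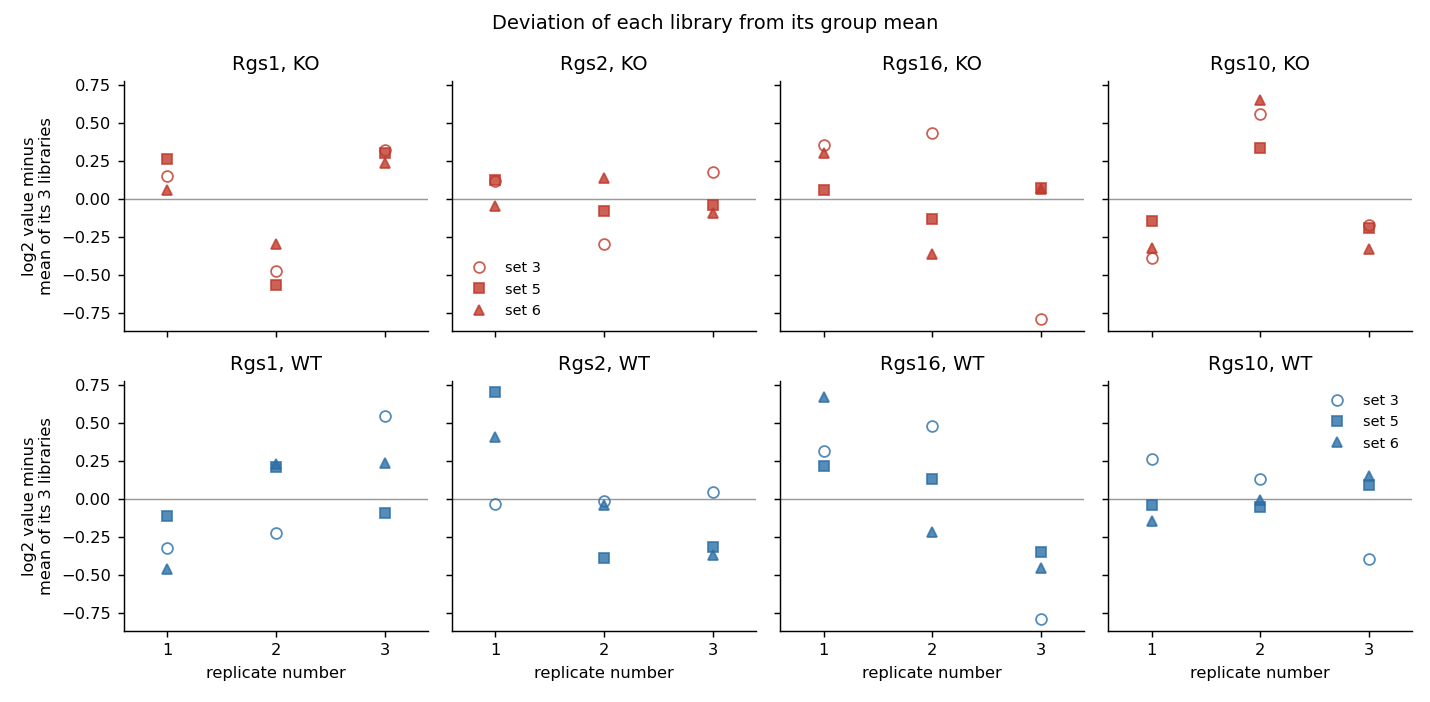
Deviation of each library from the mean of its 3 libraries, in log2 units, against replicate number, for Rgs1, Rgs2, Rgs16 and Rgs10 in KO (red) and WT (blue), with 1 symbol for each set. KO replicate 2 lies between -0.56 and -0.30 for Rgs1 and between 0.34 and 0.65 for Rgs10.

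Levels also differed between sets within a genotype. In WT cells Rgs16 fell by 2.31 (limma adjusted p = 5.38e-05) and Rgs1 fell by 1.06 (limma adjusted p = 0.00310) from set 3 to set 5. Rgs3 and Rgs14 were higher by 1.54 (limma adjusted p = 4.94e-09) and 1.53 (limma adjusted p = 1.73e-09). The other 3 members did not pass, so 4 of 7 were called where 67.6% of all genes were. In KO cells Rgs16 fell by 1.39 (limma adjusted p = 0.00363), while Rgs1 was 2.29 higher in set 5 than in set 3, opposite to its direction in WT. Rgs14, Rgs3, Rgs2 and Rgs19 were also higher in KO set 5, by 2.44, 2.03, 1.02 and 0.63, and the 6 of 7 called stand beside 73.2% of all genes. The median gene was 0.38 higher in KO set 5 than in KO set 3. After centring those 4 differences were 2.06, 1.65, 0.63 and 0.25, still past the test, and that of Rgs1 was 1.91. The Rgs16 fall in KO had a limma adjusted p of 0.0534 once KO replicate 2 was left out of all sets.

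The 6 group means were also ranked. Rgs1 ran from WT set 5 (11.77 ± 0.18) through WT set 3 (12.82 ± 0.47), WT set 6 (13.09 ± 0.40) and KO set 3 (13.46 ± 0.42) to KO set 5 (15.76 ± 0.49) and KO set 6 (16.03 ± 0.27; SD, n = 3). Its library ranges separated WT set 5 from WT set 3 and KO set 3 from KO set 5, and the other neighbours in that order overlapped. Rgs16, which was highest in set 3 in both genotypes, ran from WT set 5 (4.71 ± 0.31) and WT set 6 (5.29 ± 0.59) through KO set 5 (6.29 ± 0.11) and KO set 6 (6.84 ± 0.34) to WT set 3 (7.01 ± 0.69) and KO set 3 (7.68 ± 0.69). WT sets 5 and 6 overlapped, as did KO set 6 with WT set 3 and WT set 3 with KO set 3, while WT set 6, KO set 5 and KO set 6 were separate from one another. Rgs2 had its 3 WT groups at the bottom, at 8.21 ± 0.04, 8.25 ± 0.61 and 8.70 ± 0.39 in sets 3, 5 and 6. WT set 5 overlapped both of the others, which were separate from each other. Rgs2 had its 3 KO groups above them at 9.15 ± 0.26, 10.17 ± 0.11 and 10.53 ± 0.12, of which KO set 3 still overlapped WT set 6. Rgs3 and Rgs14 had both set 3 groups at the bottom, between 8.24 and 8.56, and every group of sets 5 and 6 between 9.91 and 10.76. Rgs10 and Rgs19 moved least, over 0.85 and 0.63 log2 units between their lowest and highest group means, and for Rgs10 every neighbour in the order overlapped.

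Few members differed between sets 5 and 6. In KO cells no member passed between them, where 12% of all genes did. In WT cells Rgs1 alone passed, higher by 1.33 in set 6 (SE 0.28, limma adjusted p = 0.0158), where 3.37% of all genes did. Its call was lost without WT replicate 1 or 3 of set 5 or WT replicate 2 or 3 of set 6 (limma adjusted p = 0.0783, 0.0552, 0.0843 and 0.0906) and against a minimum fold of 1.2 (0.0803). For the change of the KO minus WT difference between sets 5 and 6, limma called 0 of 12547 genes (0%), with 1320 at an unadjusted p under 0.05. For Rgs1 that difference between sets was -1.05 (SE 0.39, limma adjusted p = 0.406).

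The KO minus WT difference was set against that of set 3, taking the mean of sets 5 and 6. It was larger for Rgs1 by 2.82 (SE 0.34, limma adjusted p = 5.44e-06), and by 2.40 after centring (limma adjusted p = 9.99e-05). For Rgs14 it was larger by 0.92 (limma adjusted p = 1.12e-05), and by 0.49 after centring (limma adjusted p = 0.00472). The Rgs14 difference was negative in set 3 and positive in sets 5 and 6. Rgs2, Rgs3 and Rgs19 gave 0.93, 0.63 and 0.51 (limma adjusted p = 0.0123, 0.000842 and 0.000669), but 0.50, 0.20 and 0.08 after centring, none of which passed. The Rgs2 value missed the threshold without KO replicate 2 in all sets (limma adjusted p = 0.0672). Rgs16 gave 0.90 (95% interval -0.09 to 1.89) and Rgs10 0.22 (-0.46 to 0.90), and neither passed. Without WT replicate 3 of set 3, the Rgs16 value was 1.29 (limma adjusted p = 0.0229). The 5 of 7 called stand beside 55.5% of all genes, and after centring 2 of 7 beside 38.2%.

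In the authors' deposited table the fold changes equal these differences, and fewer genes pass. Some of its test scores are 0 at fold changes other than 0, as for Rgs19 in set 6 (0.26). Its test is therefore not the one used for the calls above. Its passing genes number 491, 4741 and 4410 in sets 3, 5 and 6. Here a minimum fold of 1.2 gave 492, 4743 and 4419. At a deposited adjusted p under 0.05 no member passed in set 3, where 3.91% of all genes did. In set 5, 5 of 7 passed in the authors' deposited table, where 37.8% of genes did, namely Rgs1, Rgs2, Rgs14, Rgs16 and Rgs19. For set 6 the authors' deposited table has 5 of 7, with Rgs3 in place of Rgs19, beside 35.1% of all genes. For Rgs1 between WT sets 6 and 5 the authors' deposited table gives an adjusted p of 0.0829.

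Of the rest of the family, 6 of 18 listed genes were measured. Rgs9, known for ending the light response in photoreceptors, was higher in KO in all 3 sets, by 1.80 (SE 0.36, limma adjusted p = 0.00384), 1.497 (0.00179) and 1.47 (0.00207), and also after centring. Its set 3 call was lost with only the compared groups in the fit (limma adjusted p = 0.106). Its mean was 4.34 ± 0.92 in KO and 2.54 ± 0.35 in WT of set 3 (SD, n = 3), and 6.93 ± 0.09 and 5.43 ± 0.39 in set 5. Axin1, a scaffold of the beta-catenin destruction complex that carries an RGS domain, was higher by 0.93 in set 5 and 0.74 in set 6. Rgs12 was higher by 0.64 and 1.01, of which the set 5 value did not pass after centring. Rgs11 was lower in set 6 (-0.95, SE 0.38, limma adjusted p = 0.0417), and in set 5 it was called lower after centring (-1.08) and with only the compared groups in the fit (limma adjusted p = 0.0437). Rgs11 and Rgs18 were the 2 genes of this list called lower in set 6, where 4.59% of all genes were. That count was 0 without WT replicate 1 of set 6, and 1 when any of KO replicates 1 and 3 and WT replicates 2 and 3 of set 6 was left out.

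The G alpha genes, whose products RGS proteins act on, had median differences close to those of all genes. Of 12 measured G alpha genes, 2 were higher in KO in set 3, 7 in set 5, and 9 in set 6 with 1 lower. Of all genes 6.92%, 50.1% and 53.9% were higher in these sets, and 4.59% were lower in set 6. After centring 3 were higher and 1 lower in set 5, where 24.9% and 24.7% of all genes were. In set 6 the centred counts were 4 higher and 1 lower, beside 18.8% and 18.5% of all genes. The median differences of 0.01, 0.30 and 0.41 lie beside -0.07, 0.39 and 0.42 for all genes. Gna13, known for confining germinal centre B cells, was higher by 1.0002 in set 5 and 0.93 in set 6, and Gnal, related to Gs, by 1.58 and 1.26, and both passed after centring. Gnai3, a main Gi subunit of lymphocytes, was higher by 0.32 in both sets and had centred values of -0.07 and -0.09. Gnaq was lower in set 6 (-0.54, limma adjusted p = 0.0393), a call lost without KO replicate 1, WT replicate 2 or WT replicate 3 of set 6. Gna15, a Gq family subunit of blood cells, was higher in set 3 by 2.07 (SE 0.21, limma adjusted p = 2.003e-05), in the set where mast cell, B cell and erythroid markers were also higher in KO. Gnaz, a Gi family subunit, was the other gene called in set 3 (1.25, limma adjusted p = 0.0437), and the count of 2 became 1 without any 1 library of set 3 other than KO replicate 2.

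Of 13 beta and gamma subunits none passed in set 3, 4 were higher and 1 lower in set 5, and 5 were higher in set 6. Of all genes 11.4% passed in set 3, 50.1% were higher and 8.08% lower in set 5, and 53.9% were higher in set 6. After centring 3 were higher and 5 lower in set 5, and 0 higher and 4 lower in set 6, so their direction depends on the scaling. The centred shares of all genes were 24.9% higher and 24.7% lower in set 5, and 18.8% and 18.5% in set 6. Gng12 and Gngt2 were higher in sets 5 and 6, by 0.66 and 0.59 and by 1.21 and 0.61, and after centring in set 5 only. Without KO replicate 3 of set 6, 3 genes were higher there in place of 5. Gnb5, the partner of the Rgs9 subfamily, was lower in set 5 (-0.45, limma adjusted p = 0.0494), a call lost without any 1 KO library and without WT replicate 1 or 3 of that set.

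Receptors for chemokines and lipids moved in both directions. Of 39 measured, 12 were higher and 1 lower in KO in set 3. In set 5, 20 were higher and 8 lower, and in set 6, 18 higher and 7 lower. The shares of all genes called higher in sets 3, 5 and 6 were 6.92%, 50.1% and 53.9%. Those called lower were 4.46%, 8.08% and 4.59%. After centring 15 were higher and 12 lower in set 5, and 13 higher and 10 lower in set 6, beside 24.9% and 24.7% and 18.8% and 18.5% of all genes. With only the compared groups in the fit, 5 were higher in set 3. The median differences were 0.55, 0.49 and 0.39, and 0.10 and -0.02 after centring in sets 5 and 6. The set 3 counts stand beside higher mast cell, B cell, erythroid and dendritic markers in KO, and those of sets 5 and 6 beside higher Cd68 and Adgre1, and the part of those cells was not tested. Ccr2, a receptor for monocyte-attracting chemokines, was higher in every set, by 2.61, 2.81 and 2.10, and also after centring. P2ry10 and Gpr132, receptors for lysolipids or related ligands, were higher by 1.96 and 1.73 in set 5 and by 1.61 and 1.37 in set 6. Cxcr4, the receptor for CXCL12 and whose signals Rgs1 and Rgs16 are known to dampen, was higher by 1.83, 1.47 and 1.55 in sets 3, 5 and 6, of which the set 3 call was lost with only the compared groups in the fit (limma adjusted p = 0.0715). Cxcr6 was higher in set 3 by 3.48 and was not called in sets 5 and 6 (-0.60 and -0.62). It was called lower there after centring (-0.99 and -1.04, limma adjusted p = 0.0105 and 0.0109) and with only the compared groups in the fit (0.0242 and 0.00156). Ccr7, which keeps naive T cells in lymph nodes, was lower in set 3 (-0.995), higher in set 5 (0.61, and 0.22 after centring, which did not pass) and -0.30 in set 6. Gpr34, P2ry14 and Lpar6 were lower by more than 1.5 log2 units in sets 5 and 6, at -2.51 and -2.31, -1.59 and -1.74, and -1.57 and -1.52.

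The other arm that ends receptor signals is phosphorylation by receptor kinases and capture by arrestins. Of 7 measured genes none passed in set 3, where 11.4% of all genes did. In set 5 and in set 6, 3 were higher, beside 50.1% and 53.9% of all genes. Grk2 was higher by 1.18 (SE 0.08, limma adjusted p = 2.77e-08) and 1.14 (SE 0.08, limma adjusted p = 5.68e-08), and by 0.79 and 0.73 after centring. Grk6 was higher by 0.56 and 0.47, and after centring in set 5 only. Grk3 was higher in set 5 by 2.79, from a WT mean of 1.18 ± 0.20 near the lowest value (SD, n = 3), and Grk4 in set 6 by 1.47, a call lost after centring (1.06, limma adjusted p = 0.0551). The arrestin gene Arrb2 gave 0.05 and 0.21 and was not called, and after centring it was lower in set 5 (-0.34, limma adjusted p = 0.0139). After centring the list had 3 genes higher and 1 lower in set 5, beside 24.9% and 24.7% of all genes. In set 6 it had 1 higher, beside 18.8%.

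Most measured effectors and cofactors downstream of the G proteins were called higher in sets 5 and 6. Of 26, 5 were higher and 2 lower in set 3, 20 higher in set 5, and 20 higher and 2 lower in set 6. Of all genes 6.92% were higher and 4.46% lower in set 3, 50.1% higher in set 5, and 53.9% higher and 4.59% lower in set 6. After centring 17 were higher and 2 lower in set 5, where 24.9% of all genes were higher and 24.7% lower. In set 6 the centred counts were 12 higher and 2 lower, beside 18.8% and 18.5% of all genes. The median differences were 0.02, 0.86 and 0.65. Enzymes that break down cAMP were among them: Pde4b was higher by 0.90, 2.43 and 2.30 in sets 3, 5 and 6, Pde4d by 1.70 and 1.44 in sets 5 and 6, and Pde8a by 2.06 and 1.80. Among the cyclases that make cAMP, Adcy7 was higher by 0.52, 0.83 and 0.67 in sets 3, 5 and 6, and Adcy6 by 1.39 and 1.13 in sets 5 and 6, while Adcy4 and Adcy9 were not called (-0.34 and -0.37 in set 5). The kinase subunit Prkacb was higher by 0.67 and 0.44, and after centring in set 5 only. Adcy6 and Prkacb were the 2 lower genes of set 3 (-0.63 and -0.36), a count that was 0 without KO replicate 1 or WT replicate 3 of set 3 and 1 without KO replicate 3, WT replicate 1 or WT replicate 2. With only the compared groups in the fit, no effector passed in set 3. Pik3cg, the catalytic subunit of phosphoinositide 3-kinase gamma, was higher on the deposited scale in every set, by 0.77, 0.96 and 0.60. The median gene stood at -0.07, 0.39 and 0.42 in these sets. Its regulatory subunit Pik3r5 was higher in set 3 (0.52) and lower in set 6 (-0.62), and Pde7a was lower in set 6 (-0.45), a count of 2 that was 1 without KO replicate 1, KO replicate 3 or WT replicate 3 of set 6.

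**Figure D4:**
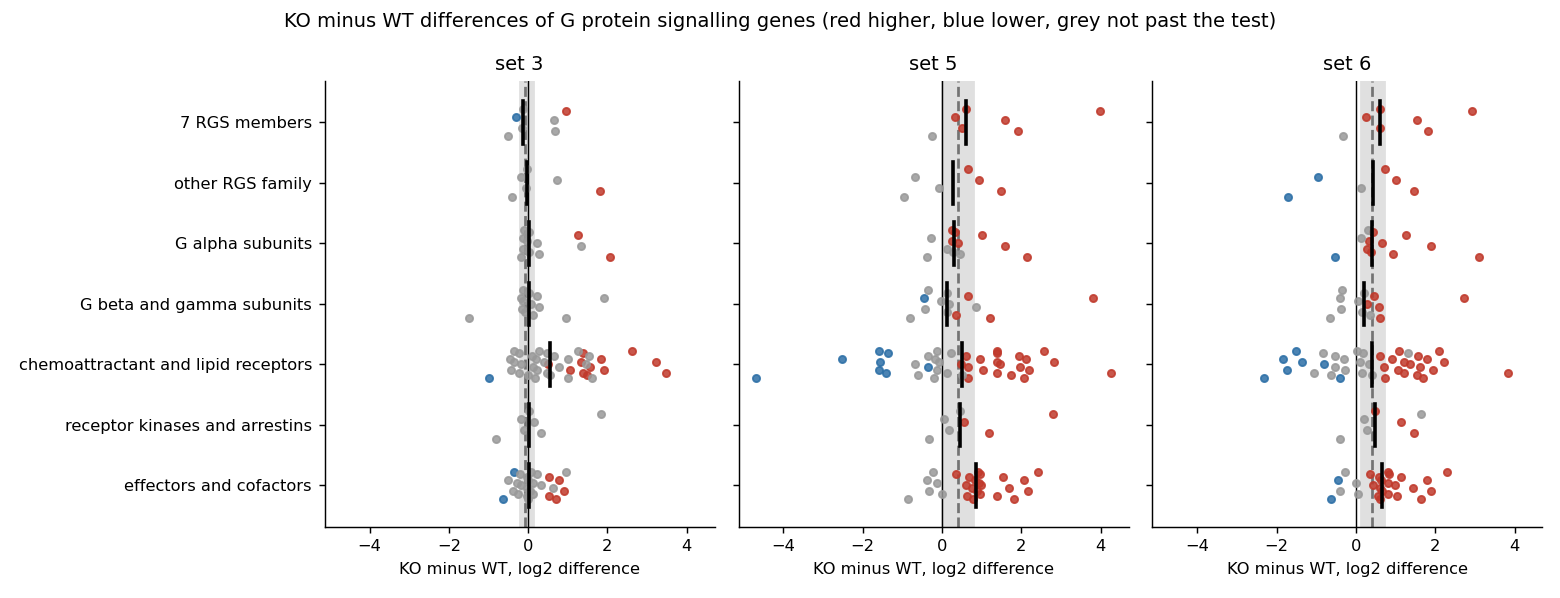
KO minus WT log2 differences in sets 3, 5 and 6 for the 7 RGS genes and for 6 lists of G protein signalling genes, red where higher, blue where lower and grey where not past the test. Black bars are list medians, the dashed line is the median of all genes and the grey band the range between their quartiles; in set 5 the effectors have a median of 0.86, against 0.39 for all genes.

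For each member the genes with the most similar profile over the 6 group means were found by the root mean square difference after each gene's own mean was removed. For Rgs1 they were Bcam, Cpeb1 and Tiam1, at 0.19, 0.20 and 0.31 log2 units, beside a span of 4.26 for Rgs1 itself. For Rgs2, spanning 2.32, they were Creb3l2, Gap43 and Frmd4b, at 0.09, 0.12 and 0.12. For Rgs16, spanning 2.98, they were Adgrg1, Xk and Zfp111, at 0.15, 0.18 and 0.20. Adgrg1 is itself a receptor of the adhesion type that couples to G proteins, and it was picked by the profile and not from the receptor list. Rgs14 was nearest to Slc25a45, Arhgef6 and Spata6, Rgs3 to Emp3, Tcta and Abca7, Rgs19 to Ywhaz, Pigbos1 and Rab5b, and Rgs10 to Galnt7, Tpd52 and Ap5s1, all within 0.09 log2 units. With 6 group means a close match is a description of these groups only.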

How the data were processed

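RNA of 18 libraries was measured by RNA-seq of polyadenylated RNA with a directional kit, per the labels' protocols. Salmon 1.9.0, edgeR, limma and GRCm39 are named, without roles, per the submitters' processing notes. The authors deposited log2 values for 12547 genes. The sources used here do not state their normalization. Sorted values matched between libraries of a group for 97.0 to 98.4% of ranks (tolerance 1e-08). That narrows the spread within groups, so p-values may be too small, and depth is unknown. A deposited table of the authors' own contrasts gives log2 fold changes, p-values and a test score, per the file headers.

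Tests used limma 3.58.1 in R 4.3.3: 1 model of 6 group means, a variance trend, 12 residual degrees of freedom, 9 contrasts, and Benjamini-Hochberg adjusted p under 0.05 over all genes. No gene was filtered out. The procedure was tested on simulated data. Summed marker levels are log2 of the summed linear values. The members and the gene lists (6 of pathway genes, 9 of cell markers) were chosen with earlier results of these data known. Named pathway genes are, per list and KO minus WT contrast, the 3 called genes of smallest adjusted p among those higher and among those lower; others are named beside their list's count with their values, and genes flanking a member by position.

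Replicate numbers were checked for pairing through correlations of deviations from group means. Same-numbered libraries of sets 5 and 6 correlated in KO (0.22 to 0.34) and in WT (0.12 to 0.16); KO and WT of a set did not pair (-0.08 to 0.18 in set 3, -0.04 to 0.03 in set 5 and -0.06 to 0.01 in set 6). Same-numbered libraries of set 3 correlated more weakly with those of sets 5 and 6: 0.03 to 0.15 and 0.01 to 0.18 in KO, and 0.069 to 0.074 and 0.044 to 0.075 in WT. Libraries of other numbers gave -0.15 to 0.06 and -0.13 to 0.03 in KO, and -0.05 to -0.03 and -0.06 to 0.01 in WT. The pairing is a hint from the data. Promoter windows came from RefSeq (GRCm38.p6).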

Additional observations from a re-analysis of the deposited data

Results flagged for a closer look

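The KO minus WT difference, taken as the mean of sets 5 and 6 less that of set 3, passed limma's test (adjusted p under 0.05) for 5 of the 7 RGS genes, where 55.5% of all genes passed. It also passed for 28 of 40 pathway genes that had been picked by their KO minus WT differences in single sets, so that count is a description only. On the deposited log2 scale the change was 2.82 for Rgs1, 0.93 for Rgs2, 0.63 for Rgs3, 0.92 for Rgs14 and 0.51 for Rgs19. Rgs1 and Rgs14 also passed after centring. In the rest of the family it was 0.89 for Axin1, 0.85 for Rgs12 and -2.07 for Rgs18, whose KO libraries of set 5 were all at their lowest value.

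Of the 28 pathway genes, 24 also passed after centring with the same sign. Among subunits the change was -1.60 for Gna15, 0.73 for Gna13, 1.41 for Gnal, 0.42 for Gnai3, 0.76 for Gng12 and 0.32 for Gng5. Among receptors it was positive at 1.15 for Ccr7, 1.44 for Gpr132, 1.30 for P2ry10 and 2.16 for Gpr174. It was negative at -4.09 for Cxcr6, -1.47 for Cysltr1, -4.49 for Ccr10, -1.10 for Lpar6, -2.51 for Gpr34 and -2.45 for P2ry14. The KO minus WT differences of Ccr10 were 1.62, -4.69 and -1.06 in sets 3, 5 and 6. Its value thus averages unlike differences in sets 5 and 6 and rests in part on a higher KO mean in set 3. Receptor kinases gave 1.02 for Grk2, 0.71 for Grk6 and 1.76 for Grk4. Effectors gave 1.46 for Pde4b, 0.92 for Prkacb, 1.89 for Adcy6, 1.85 for Pde4d, 1.69 for Pde8a and -0.90 for Pik3r5. The negative values of Cxcr6, Cysltr1 and Gna15 rest on a higher KO level in set 3, where mast cell, B cell and erythroid markers were also higher in KO, and the part of those cells was not tested.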

How the results depend on the processing

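Rgs1, Rgs2 and Rgs16 stayed higher in KO in sets 5 and 6 and past the threshold under all alternatives run. Median centring and quantile normalization each took the number of called members from 6 to 3 in set 5, from 2 to 1 in set 3 and from 5 to 2 for the difference of set 3 from the mean of sets 5 and 6. Both turned Rgs3 in set 5 (-0.062 and -0.071) and Rgs19 in set 6 (-0.15 and -0.15); the shift of all genes between KO and WT is what these scalings remove. In set 3 the 2 calls became 1 in the compared groups alone, 0 against a minimum fold of 1.2, and 4 without KO replicate 2 of all sets, an alternative chosen after seeing the data, as was a replicate block within genotype. For WT sets 6 and 5 the minimum fold gave 0 in place of 1. Leaving out single libraries gave 0 to 2 called members in set 3, 5 to 6 in set 5, 5 to 7 in set 6, 0 to 1 between WT sets and 5 to 6 for the difference between sets. With the replicate number as a block, the called members stayed at 2, 6 and 6 in sets 3, 5 and 6, and no call of a member changed. Over all genes the set 3 count of 1427 fell to 492 with the minimum fold, 379 in the compared groups alone and 666 without KO replicate 1. The minimum fold gave 4743 of 7299 genes in set 5, 4419 of 7336 in set 6, 4625 of 6963 for the difference between sets, 75 of 1501 between KO sets 6 and 5, and 87 of 423 between WT sets. Centring gave 4669 in set 6, 943 between KO sets and 258 between WT sets. Quantile normalization gave 4723, 931 and 226, and the compared groups alone 519 and 643 between KO and WT sets. The block within genotype gave 740 between WT sets and 11 in place of 0 for the difference of sets 5 and 6, and made Rgs10 higher in KO set 5 than in set 3 (limma adjusted p = 0.0142). Leaving out 1 library gave 666 to 1914 genes in set 3, 589 to 1647 between KO sets and 113 to 385 between WT sets. The filter on low values removed no gene, and depth, which is unknown, sets no interval here.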
